A study of Drosophila melanogaster with 3 samples.

Results

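Polycomb group genes encode the proteins that keep developmental genes silent through cell divisions. The 10 genes described here are ph-p, ph-d, Psc, Su(z)2, Pc, Sce, Scm, E(z), Su(z)12 and pho, out of 13945 protein-coding genes annotated on the main chromosome arms of Drosophila melanogaster. They were taken as a named list of classical members of the group, with the peaks at some of them already known from these lists. Their ranks and counts are therefore a description, and no test was made on them.

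The proteins work in complexes. Polycomb repressive complex 1 (PRC1) has as its core the products of Pc (which reads methylated histone H3), Psc or its paralogue Su(z)2, Sce (the RING-finger ubiquitin ligase of histone H2A) and the ph genes (Polyhomeotic proteins, which polymerise through a SAM domain). Scm is a SAM-domain protein that associates with PRC1, and PRC2 holds the histone methyltransferase E(z) and its partner Su(z)12. Pho is a zinc-finger protein, the fly homologue of mammalian YY1, which binds DNA at Polycomb response elements and helps to recruit the others. Some of these genes, ph and Psc with Su(z)2 among them, are known in flies to be bound by Polycomb proteins themselves.

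The material was whole embryos of 8 to 24 h that carried a transgene for the homeodomain protein Dbx, a factor of interneurons in the embryonic nervous system, fused to enhanced green fluorescent protein (eGFP). Chromatin was sonicated to 200 to 800 bp and the fusion was recovered with an antibody against GFP (chromatin immunoprecipitation with sequencing, ChIP-seq). The 3 samples are biological replicates of 1 group, all carrying the transgene, and whatever drives it is not given in the sources used here. The age is that of the source name, since another age field holds a value that cannot be an embryo's in hours, and a label that names Dbx as the antibody was read as the target. No control was analysed here, so how far any peak depends on the fusion protein was not tested, and peak lists hold no expression with which to check the labelled tissue. Peaks are the authors', called at an irreproducible discovery rate (IDR) of at most 0.01 except where a ranked list, which also holds weaker peaks, is named. The thresholded lists do not hold every peak at that IDR. Of 5095 such peaks in the conservative ranked list, 152 were absent from the thresholded one. In replicates 1, 2 and 3 the number absent was 132, 101 and 76. A peak's signal is the authors' enrichment value and was compared by rank within a list alone. The conservative list, made from all 3 replicates, held 4943 peaks on the main arms, and replicates 1, 2 and 3 held 3701, 3353 and 2515. The read depth behind them is unknown.

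A gene was counted when one of its transcription start sites (TSSs) was the nearest protein-coding TSS to a peak summit, or when a summit lay in the gene body plus 2 kb on either side. By the nearest TSS, 6 of the 10 genes had a conservative summit, where 23.9% of all protein-coding genes did. By gene body plus 2 kb, 7 of 10 had one, where 39.3% of all genes did. Both counts are ones that were in view when the list was drawn up, so nothing is read from how they stand to the background. Together the genes held 15 conservative peaks, numbered below by signal within each gene.

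The ph genes on X held the highest peak of any of the 10 genes and, at the neighbouring copy, a much lower one, so the sequence around 3 of their summits is shown first. Each line is 201 bases centred on a summit, read 5′ to 3′ on the strand of the gene from the RefSeq sequence of dm6, with TAAT or its complement ATTA, the core of homeodomain sites, in capitals. The first is the highest of the ph-p sites, in an intron, at chrX:2137236-2137436 on the minus strand. The second is the lowest of the ph-p sites, also in an intron, at chrX:2135227-2135427 on the minus strand. The third lies in the intergenic stretch upstream of ph-d, at chrX:2123963-2124163 on the minus strand.
ph-p site 1: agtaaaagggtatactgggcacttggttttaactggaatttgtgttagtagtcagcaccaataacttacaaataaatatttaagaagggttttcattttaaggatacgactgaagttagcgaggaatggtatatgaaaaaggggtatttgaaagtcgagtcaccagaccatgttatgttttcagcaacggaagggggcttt
ph-p site 3: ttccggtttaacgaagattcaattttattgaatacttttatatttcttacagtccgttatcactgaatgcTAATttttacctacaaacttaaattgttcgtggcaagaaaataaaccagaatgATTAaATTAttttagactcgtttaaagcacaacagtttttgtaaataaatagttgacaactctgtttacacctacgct
ph-d site 1: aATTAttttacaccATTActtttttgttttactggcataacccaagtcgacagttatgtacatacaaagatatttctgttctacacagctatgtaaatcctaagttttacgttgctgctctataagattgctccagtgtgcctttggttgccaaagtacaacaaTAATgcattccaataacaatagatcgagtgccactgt
The window of the highest site held no TAAT on either strand, while the other 2 windows held 3 matches each. Over all conservative summit windows of this length, 82.0% held the word, and over all protein-coding TSS windows 78.2% did.

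The gene ph-p (FBgn0004861, X 2126210 to 2138371, minus strand) had 3 conservative sites, all present in all 3 replicate lists. The highest peak spanned X 2137146 to 2137547 with its summit at X 2137336, in an intron, 1035 bp downstream of the outermost ph-p TSS and 481 bp upstream of an internal one. Its signal was 1826.2 in the conservative list, where it ranked 9 of 4943, and it was 571.7, 695.8 and 660.6 in replicates 1, 2 and 3, where it ranked 6, 9 and 9. The 3 replicate summits fell within 25 bp of each other. The next ph-p site, at X 2137932 in the 5′ UTR and 439 bp downstream of the outermost TSS, ranked 72, with signals of 321.5, 304.5 and 319.1 in the replicates and ranks of 56, 81 and 60. The third, at X 2135327 in an intron and 1295 bp downstream of the nearest TSS, ranked 1639, with signals of 58.5, 60.3 and 62.0. In each replicate list the 3 sites therefore kept the same order, and the lowest of them sat near the middle of the list, at 53.0%, 59.8% and 50.7% of its length from the top.

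Its tandem duplicate ph-d (FBgn0004860, X 2115727 to 2123286, minus strand) had a single conservative site. That summit, at X 2124063, lay 777 bp upstream of the ph-d TSS and ranked 870 of 4943 with a signal of 261.2. Its signal was 74.5, 102.6 and 81.6 in replicates 1, 2 and 3, at ranks 1231, 792 and 865. As a percent of the list, the best rank was 0.263 ± 0.098 for ph-p and 30.4 ± 5.92 for ph-d (SD, n = 3 replicate lists), and the ranges over replicates, 0.162 to 0.358 and 23.6 to 34.4, did not overlap. This gap is a description, since the ranks were known when the genes were chosen. Some lists held further peaks at either copy. Replicate 2 and the series-level list of 3453 peaks each had 4 summits nearest to ph-p. Others lay at ph-d. A peak at its own promoter was listed in replicate 1 (10 bp downstream of the TSS, rank 3274 of 3701), in the longest of the series-level lists (24 bp upstream, rank 4371 of 6386) and in another series-level list (24 bp upstream, rank 3094 of 3453). A second upstream peak, which overlaps the conservative one, was listed in replicate 3 (992 bp upstream, rank 1302 of 2515) and in the same pair of series-level lists (983 bp upstream, ranks 1995 and 1925).

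**Figure D1:**
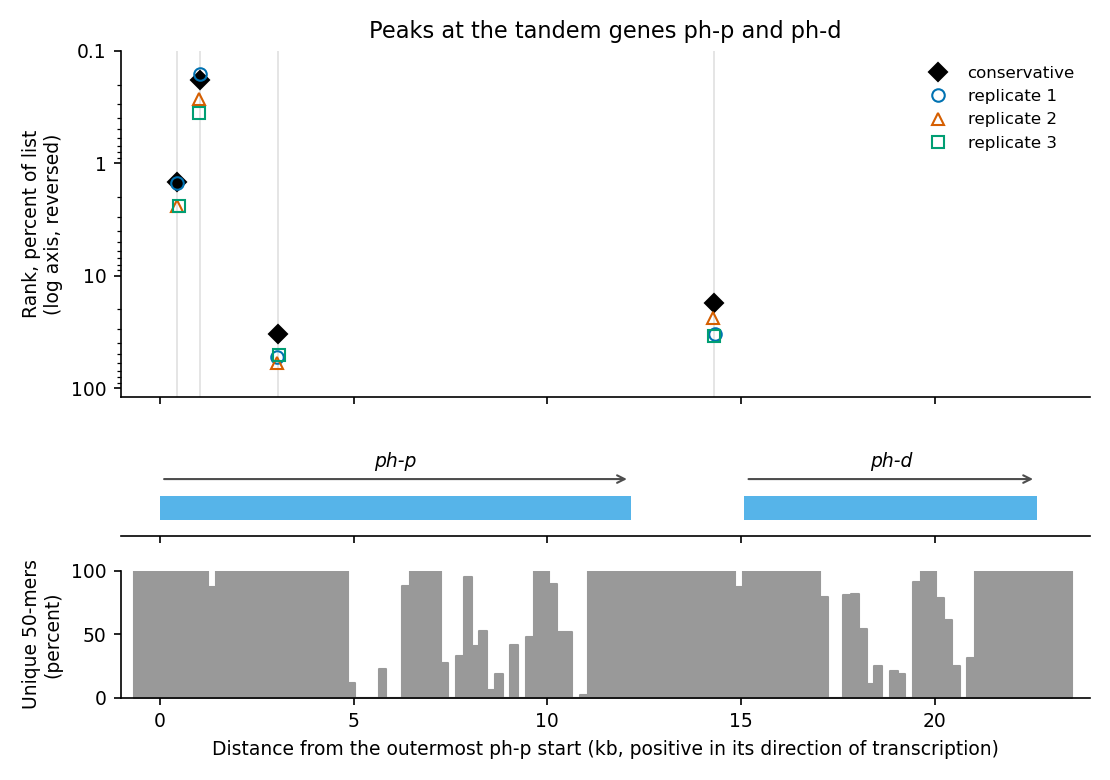
Peaks at ph-p and ph-d. Top, summit position (x axis, kb from the outermost ph-p TSS) against rank as a percent of the list (y axis, log scale, reversed), with filled diamonds for the conservative list and open circles, triangles and squares for replicates 1, 2 and 3. Middle, the gene bodies with arrows for the direction of transcription. Bottom, the percent of 50-base words in 200 bp bins that occur once in the genome. The peaks stand over unique sequence, and the bins of low unique share lie in the bodies of both genes.

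The copies share long stretches, so it was asked whether reads of one could have been counted at the other. Of the 50-base words of ph-d, 30.4% also occur in ph-p, and of those of ph-p 18.8% occur in ph-d. The longest alignment between the gene bodies covered 4480 bp at 91.96% identity. None of the shared words lay in a summit window. At all 15 sites every 50-base word of the 201 bp window, and of the whole peak, occurs once in the genome. The same held with 100-base words, and with 36-base words it held for all windows and all but 1 whole peak, that of ph-p site 1, where 95.1% of 36-base words were unique. A peak at ph-p or ph-d over the shared part of the gene bodies would depend on how reads with several matches were treated, which is not given in the sources used here.

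The sequence under ph-p sites 1 and 2, but not under site 3, aligned with sequence upstream of ph-d. A stretch of 119 bp of the ph-p site 1 peak aligned at 90.76% identity with the sequence 293 to 410 bp upstream of the ph-d TSS, where no conservative summit lay. A stretch of 159 bp of the ph-p site 2 peak aligned at 70.44% identity with the sequence 624 to 766 bp upstream of the ph-d TSS. The ph-d peak spans 663 to 852 bp upstream of that TSS, so it overlaps the second counterpart and not the first. The window of ph-p site 2 was 26.4% G and C where the median of all conservative windows was 39.3%. The ph-d peak, searched the other way with its 190 bp, gave no alignment to the ph-p gene or the 2 kb upstream of it.

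The second paralogue pair stands on chromosome arm 2R, with the genes divergent and 15506 bp apart. Psc (FBgn0005624, 2R 12965997 to 12980994, minus strand), the RING-finger partner of Sce in PRC1, had 3 conservative sites. The highest lay between the genes, at 2R 12985203, 4209 bp upstream of the Psc TSS. It ranked 105 of 4943 with a signal of 763.6, and in replicates 1, 2 and 3 it had signals of 246.6, 303.6 and 200.3 at ranks 113, 82 and 167. The 3 replicate summits fell within 10 bp of each other. That summit was 164 bp from the start of a noncoding gene, lncRNA:CR44339, which is the nearest TSS when noncoding genes are counted. A site in a Psc intron, at 2R 12975650, ranked 1180 and was in all 3 replicates, with signals of 91.2, 62.1 and 57.5. The third, at the Psc promoter (2R 12980906, 88 bp downstream of the TSS), ranked 2701 and was listed in replicate 1 alone.

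Su(z)2 (FBgn0265623, 2R 12996501 to 13007911, plus strand), the paralogue of Psc, had more sites than any other of the 10 genes, and in the conservative list the best of them ranked below the best site of every other gene with one. Its 5 summits ranked 1944, 2223, 2435, 3293 and 4037 of 4943. Of these, 2 were listed in replicates 1 and 2, 3 in replicate 1 alone and none in replicate 3. The highest, at 2R 13015787, was intergenic and 7876 bp past the 3′ end of the gene, with signals of 87.0 in replicate 1 and 46.4 in replicate 2. The next, at 2R 12997183, was at an internal promoter, with signals of 68.5 and 57.8. In the ranked list of replicate 3, which also holds peaks that miss the threshold, the best peak at Su(z)2 had an IDR of 0.0421. As many summits or more were nearest to 86 of the 3339 genes with a conservative summit (2.58%). The stretch of chromosome nearer to Su(z)2 than to any other protein-coding gene was 26990 bp, longer than that of 92.9% of genes, and its part in the number of summits was not tested.

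**Figure D2:**
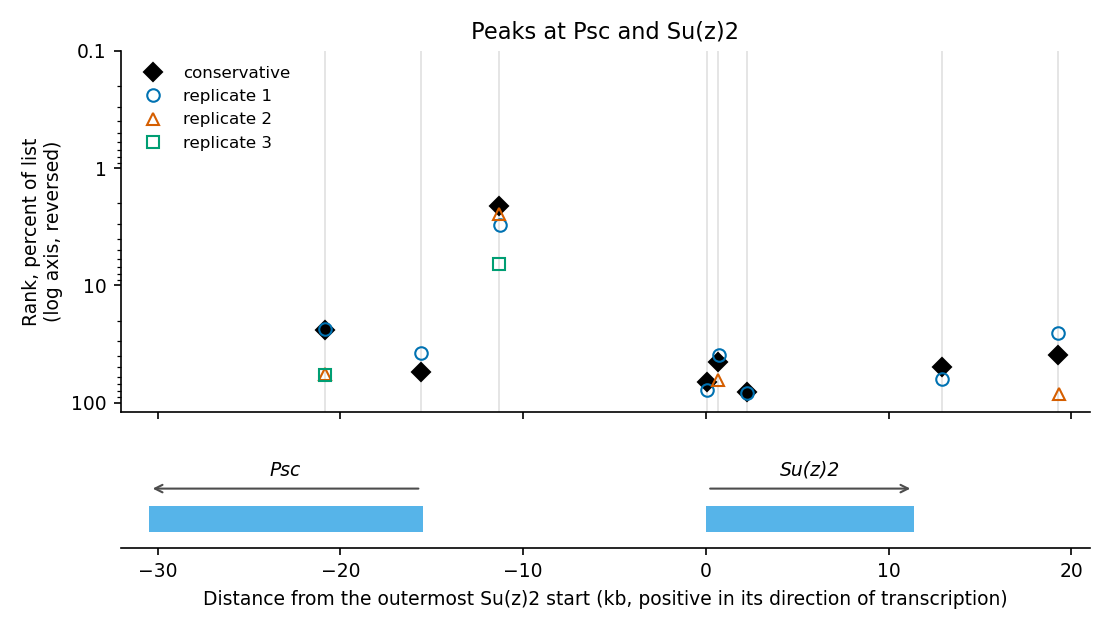
Peaks at Psc and Su(z)2. Top, summit position (x axis, kb from the outermost Su(z)2 TSS) against rank as a percent of the list (y axis, log scale, reversed), with filled diamonds for the conservative list and open circles, triangles and squares for replicates 1, 2 and 3. Bottom, the gene bodies with arrows for the direction of transcription. The highest peak drawn, rank 105, stands between the genes, and no peak at Su(z)2 carries the square of replicate 3. Only sites counted for these genes are drawn. Of the 2 conservative summits in the gap, the one nearest to another gene is therefore not shown.

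In both pairs 1 copy held the better best rank, but for Psc this rests on the site between the genes. That site lies outside the Psc body plus 2 kb. With it, the best rank of Psc was 4.05% ± 2.27 of the list (SD, n = 3). The next Psc site, in an intron, was at 23.5%, 56.9% and 58.3% of the lists of replicates 1, 2 and 3. At promoters, the best conservative rank was 2701 for Psc and 2223 for Su(z)2. The best rank of Su(z)2 was 25.7% in replicate 1 and 63.8% in replicate 2, from different sites, and it had no peak in replicate 3. The pairs differed in shared words. Between the bodies of Psc and Su(z)2 no 50-base word was shared on either strand, whereas 30.4% of those of ph-d occur in ph-p. The ph genes aligned over 61.1% of ph-d. Only alignments on the same strand of the genome were kept for gene bodies. Psc and Su(z)2 lie on opposite strands, so the alignment search cannot compare them with the ph pair. In the gap between the ph genes, 2923 bp with no other protein-coding gene, lay 1 conservative summit. In the gap between Psc and Su(z)2, which holds CG33798, lay 2.

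Of the other PRC1 genes, Pc was reached by the gene body rule alone. Pc (FBgn0003042, 3L 21306138 to 21318020, minus strand) had no summit nearest to its TSS in any of the 7 thresholded lists. The summit counted for it, at 3L 21304577, was 1561 bp past its 3′ end, and stood 81 bp downstream of the TSS of CG11309, inside that gene. It ranked 124 of 4943 with a signal of 710.5, and its signals in replicates 1, 2 and 3 were 267.3, 254.6 and 185.4. The nearest conservative summit to the Pc TSS was 13443 bp away. Sce (FBgn0003330, 3R 27680431 to 27682029, minus strand) had no summit by either rule in any thresholded list. The nearest, at Hsdl2, was 3122 bp from its body, outside the 2 kb within which Pc was counted. Below the threshold, the best Sce peak of the list from which the conservative one was drawn had an IDR of 0.0203, and in the ranked lists of replicates 1, 2 and 3 its best IDR was 0.548, 0.623 and 0.393. The weakest site that was inside the threshold, the fifth of Su(z)2, had a conservative IDR of 0.00863.

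Scm (FBgn0003334, 3R 9633359 to 9637611, minus strand) had no summit in any thresholded list. Its best IDR was 0.083 in the conservative ranked list, 0.0292 in the longest and 0.142, 0.18 and 0.275 in those of replicates 1, 2 and 3. The peaks behind the values of the conservative, longest and replicate 2 lists were nearest to SpdS. The nearest conservative summit stood 6074 bp from the gene body and was nearest to CG8319.

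E(z) and Su(z)12, the PRC2 genes among those described here, had 1 site each, at the promoter and in every replicate list. The summit at E(z) (FBgn0000629, 3L 10634575 to 10638130, minus strand) was at 3L 10638073, 57 bp downstream of the TSS, and ranked 425 of 4943 with a signal of 391.0. In replicates 1, 2 and 3 the signals were 107.5, 166.3 and 127.9 and the ranks 639, 301 and 397. The summit at Su(z)12 (FBgn0020887, 3L 19918242 to 19923462, minus strand) was at 3L 19923381, 81 bp downstream of the TSS, and ranked 1325 with a signal of 202.1. In the replicates its signals were 61.8, 59.0 and 59.9, at ranks 1780, 2076 and 1364. The best rank was 14.0% ± 4.42 of the list for E(z) and 54.7% ± 6.92 for Su(z)12 (SD, n = 3), and the ranges, 8.98% to 17.3% and 48.1% to 61.9%, did not overlap.

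No peak of any kind was found at pho (FBgn0002521, chromosome 4, 1172469 to 1181628, minus strand), the only one of the 10 genes whose product is known to bind a DNA sequence of its own. It had none in the thresholded lists, and none in the ranked lists of the 3 replicates, of the conservative list or of the longest list. The nearest conservative summit was 140601 bp from the gene body, at ATPsynbeta. On chromosome 4 as a whole, 6 of 80 protein-coding genes (7.50%) had a conservative summit nearest to them. The conservative ranked list held 70.5 peaks per Mb on chromosome 4 and 727 per Mb on the other arms, and replicates 1, 2 and 3 held 313, 132 and 29.7 per Mb on chromosome 4 and 588, 744 and 646 per Mb on the others. A lack of peaks at pho and the low number on its chromosome cannot be told apart.

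**Figure D3:**
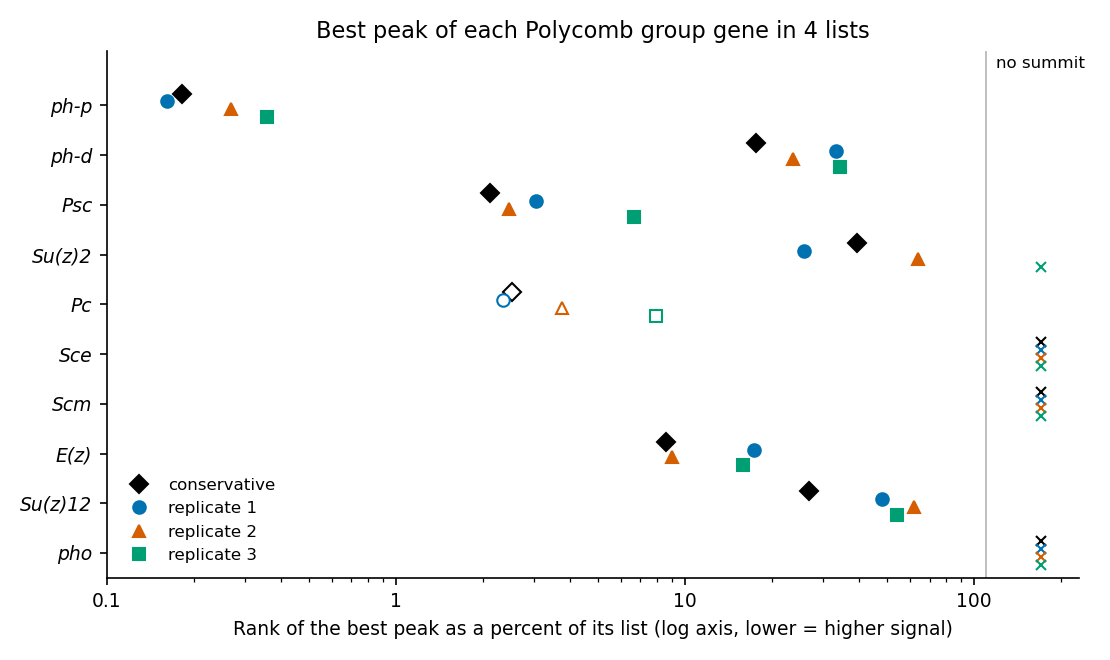
The best peak of each of the 10 genes. The x axis is the rank of the peak as a percent of its list on a log scale, where lower values mean higher signal. Diamonds stand for the conservative list and circles, triangles and squares for replicates 1, 2 and 3. Open symbols at Pc mark a summit that is nearest to another gene, and crosses on the right mark no summit. The ph-p points lie between 0.162% and 0.358%, left of all others, and the Su(z)2 row has a cross for replicate 3.

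By complex, a conservative summit was nearest to 4 of the 6 PRC1 core genes, to E(z) and Su(z)12 of PRC2, and to neither Scm nor pho. With the PRC2 core genes of the wider list below (esc, escl and Caf1-55) counted as well, the PRC2 core count was 2 of 5. Over all protein-coding genes the share was 23.9%. By gene body plus 2 kb the PRC1 count was 5 of 6 and the PRC2 core count 3 of 5. The share of all protein-coding genes was then 39.3%. In order of best rank over the replicates, ph-p came first at 0.263% of the list and stood clear of the rest. Psc at 4.05% ± 2.27 and the site counted for Pc at 4.67% ± 2.89 followed and overlapped in range. E(z) at 14.0% ± 4.42 stood apart from both of them in range, as did ph-d at 30.4% ± 5.92. Su(z)2, at 25.7% and 63.8% in 2 replicates, overlapped both ph-d and Su(z)12, which was at 54.7% ± 6.92 (SD, n = 3). The order does not separate the complexes, since ph-p and Psc stood above E(z) and Su(z)12, and ph-d between E(z) and Su(z)12.

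In the separate replicate lists a summit was nearest to 6 genes in replicate 1, 6 in replicate 2 and 5 in replicate 3, where 19.1%, 18.3% and 14.4% of all protein-coding genes had one. The replicate 3 list, the shortest, lacked Su(z)2. The 5 genes with a summit in all 3 lists were ph-p, ph-d, Psc, E(z) and Su(z)12, where 10.5% of all genes had one. In the longest series-level list the count was again 6, where 29.0% of genes had a summit. Within the 500 conservative peaks of highest signal it was 3 (ph-p, Psc and E(z)), where 3.48% of genes had one.

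The sites at the 10 genes recurred in replicates to different degrees. Of the 15 sites, 9 overlapped a peak by 1 bp or more in all 3 replicate lists, 2 in 2 lists and 4 in 1 list, and none was without a replicate peak. Among all 4943 conservative peaks, 36.2% overlapped a peak in all 3 lists, 22.3% in 1 list and 20.5% in none. The 6 sites missing from some replicate were the 5 at Su(z)2 and the 1 at the Psc promoter, and all 6 were listed in replicate 1. By class, 6 of the 15 summits lay at a promoter (no further than 250 bp from any protein-coding TSS), 4 were in introns, 4 were intergenic and 1 was in a 5′ UTR. Over all conservative summits 51.4% were at promoters, 30.5% in introns, 13.9% intergenic and 1.29% in 5′ UTRs.

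**Figure D4:**
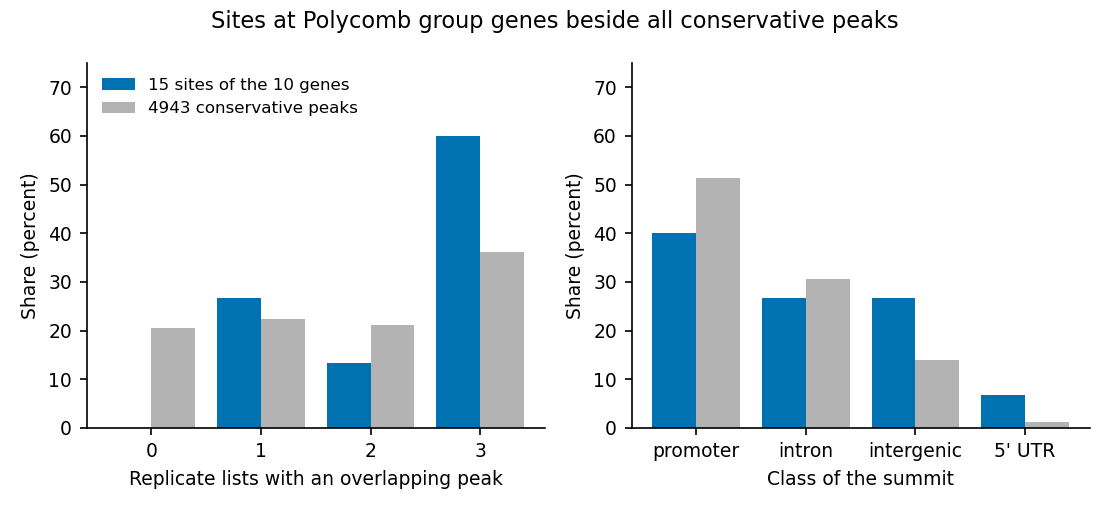
Sites at the 10 Polycomb group genes (blue, 15 sites) beside all 4943 conservative peaks (grey), in percent of each set. Left, the number of replicate lists with an overlapping peak. Right, the class of the summit, shown for the classes that hold a site of the 10 genes. In the left panel 9 of the 15 sites stand in the bar for all 3 lists and none in the bar for 0 lists.

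Short words tied to Polycomb response elements and to promoters were looked up on both strands within 100 bp of the 15 summits. GCCAT, the core of the Pho site, was in none of the 15 windows, in 28.8% of all conservative summit windows and in 30.8% of all protein-coding TSS windows. With 200 bp on either side it was in 6 of 15, where 51.5% of all conservative windows held it. GAGAG, bound by GAGA factor and Pipsqueak, was in 6 of 15 windows and in 27.4% of all conservative windows. The 6 were 4 of the 5 Su(z)2 sites, the Psc promoter site and the E(z) site, with 10 overlapping matches at the highest Su(z)2 site and 1 match at E(z). None of the sites of the ph genes held it. With 50 bp on either side the count was 3 (14.2% of all), and with 200 bp it was 9 (47.9% of all), with ph-p site 2 among them. GTGTGT, tied to combgap, was in 1 of 15 windows (15.5% of all), and in 8 of 15 with 200 bp on either side (30.5% of all). The zeste words TGAGTG and TGAGCG were in 2 and 1 windows (13.3% and 6.67%), near their shares of 10.3% and 8.92% of all conservative windows.

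TAAT was in 10 of the 15 windows (66.7%) and in 82.0% of all conservative windows. The longer palindrome TAATTA, which contains TAAT, was in 1, at the highest Psc site, which also had the most TAAT matches, 7, and in 13.1% of all conservative windows. With 200 bp on either side it was in 4 of 15, where 23.6% of all held it. GAAAA, tied to Dsp1, was in 9 of 15 windows and in 69.2% of all. GGGTGG and GGGCGG, the Sp and KLF words, were in 3 and 1 windows, all at Su(z)2, where 8.07% and 6.21% of all conservative windows held them. With 200 bp on either side they were in 6 and 3 of 15 (15.8% and 13.2% of all), with sites at ph-p and Pc among them. CAGCTG, an E-box, was in 2 (11.2% of all), and in 5 with 200 bp on either side (22.1% of all). The promoter words TATCGATA (DREF) and GGTCACACT (M1BP) were in none of the 15, where 5.34% and 2.47% of all conservative windows held them. Counts of words over 15 windows at 7 genes are descriptions, since sites of a gene share their surroundings.

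The genes whose ranks were most like those of ph-p were CG7601, Tcs5 and eIF6. Likeness was the summed difference in best rank, in percent of the list, over the conservative list and the 3 replicate lists, among 1451 genes with a summit in all 4. The sums were 0.266, 0.296 and 0.363. CG7601 had its best peak at 0.202% of the conservative list, Tcs5 at 0.121% and eIF6 (which acts in maturation of the large ribosomal subunit) at 0.162%, beside 0.182% for ph-p.

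The other listed genes of the Polycomb system gave a wider view of the same lists. Of 23 such genes outside the 10, a conservative summit was nearest to 11 (47.8%) and in the gene body plus 2 kb of 17 (73.9%), and 6 had a summit nearest in all 3 replicate lists. Over all protein-coding genes these shares were 23.9%, 39.3% and 10.5%. These genes too were listed with earlier results of these data known, so nothing is read from how they stand to the background. Gene length, which differs widely among them, was not taken into account. Trl (GAGA factor), one of the DNA-binding factors of response elements, had the best rank among the 11 nearest to a summit, an intronic one of rank 14 and signal 1685.0 that lay equally near to a TSS of CG42507. RYBP, a subunit of variant PRC1, had 6 summits with a best rank of 776, and all 3 replicates listed it. Sfmbt, the partner of Pho in PhoRC, had a promoter summit of rank 836 in all 3 replicates. l(3)73Ah, a RING-finger paralogue of Psc, had a summit of rank 1479 in all 3. Of the 7 DNA-binding factors, 5 were nearest to a summit: Trl, psq (rank 2949), Dsp1 (1369), cg (2088) and grh (1648). The remaining ones with a summit nearest were jing (1814), corto (3262) and Asx (2106), none of them in all 3 replicate lists.

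Several high ranks in this wider list belong to neighbours, as at Pc. The summit of rank 11 counted for Caf1-55, a histone-binding subunit of PRC2, was at the promoter of Art3. That of rank 44 counted for phol, the paralogue of pho, was at the promoter of CG3552, and that of rank 602 counted for Pcl was nearest to pAbp. The best summits counted for calypso, mxc and Spps were at promoters of other genes as well. In the PRC2 core esc and escl, a paralogue pair, had no conservative summit by either rule, and neither did Kdm2, Jarid2, sxc or z.

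**Figure D5:**
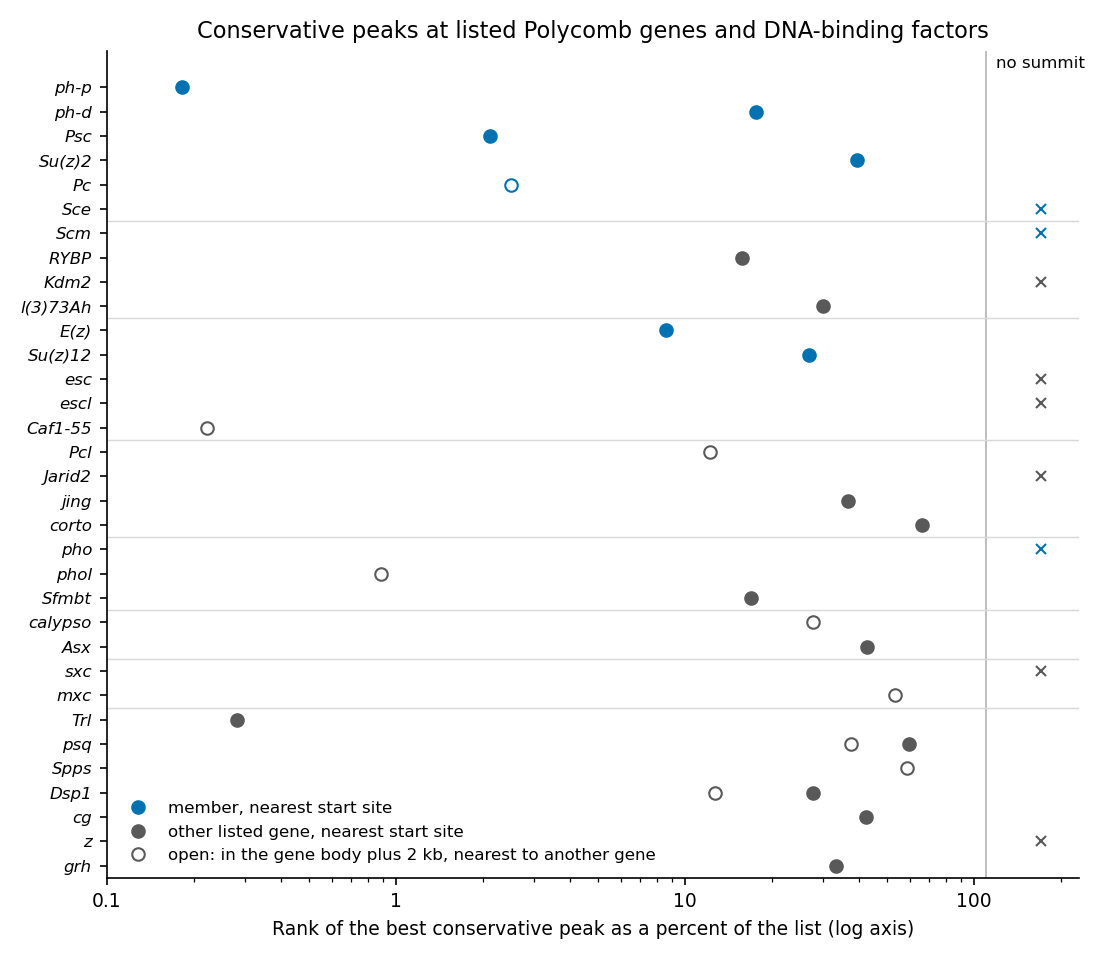
Best conservative peak at the 10 genes (blue) and the 23 other listed genes (grey). The x axis is rank as a percent of the 4943 peaks on a log scale, and the rows are grouped by complex. Filled points are nearest to the gene, open points lie in its body plus 2 kb and are nearest to another gene, and crosses mark no summit. The points left of 1% are ph-p, Caf1-55, phol and Trl, of which those of Caf1-55 and phol are open.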

How the data were processed

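ChIP-seq for Dbx-eGFP was done in 3 replicates of whole embryos. For each replicate and for all 3 together the authors deposited peak lists on dm6, ranked and thresholded by IDR, per the file headers and the text deposited with them. The signal and the summit offset of each peak are the authors' deposited values, and so is the −log10 of its IDR. The sources used here name no aligner or peak caller and give no read depth. In each of the 4 series-level ranked lists 8 columns of unnamed single samples were not used. The deposited text does not say which replicates or pools a series-level list compares.

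Summits on 2L, 2R, 3L, 3R, 4 and X were assigned in Python 3.11.15 (pandas 2.3.3, numpy 2.4.6) with Ensembl release 115 and RefSeq's dm6 sequence. A summit equally near to several genes was given to each. A summit took the first class that held it, promoter before exon parts (5′ UTR, coding, 3′ UTR), then intron, then intergenic. Paralogues were aligned with blastn 2.17.0+. Assignment and overlap were tested on simulated peaks. Members, gene lists and words were chosen with earlier results of these data known. Genes named are the 10 members, the 3 most like ph-p, genes sharing a member's summit and the listed Polycomb genes.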

Additional observations from a re-analysis of the deposited data

How the results depend on the processing

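The count of 6 genes nearest to a conservative summit was between 5 and 7 under 10 of 11 alternatives. The conservative list itself was not remade without a replicate. Instead, its peaks were kept where they overlapped the lists of both replicates other than 1, 2 or 3, which gave 5, 5 and 6. Su(z)2, with no peak in replicate 3, was lost in the first 2 of these. The count was 3 with only the 500 peaks of highest signal. The count of 7 by gene body plus 2 kb was between 5 and 8 under 6 of 7 alternatives, with Sce added at 5 kb and ph-d and Pc lost at 0 kb. Under the same overlap rule it was 6 to 7, and with the 500 highest peaks it was 3 (ph-p, Pc and E(z)). The count of 5 genes in all 3 replicate lists was 5 or 6 under all 6 alternatives, 5 to 6 when a replicate was left out, and Su(z)2 joined without replicate 3. At an IDR of at most 0.05 Sce joined the first count. No share of all protein-coding genes was computed under the changed flanks, IDR cut or overlap rules. Those counts therefore have no background beside them. Best ranks moved by more than the spread of the replicates in 14 of 34 comparisons, and counts of words by more than 1.5 times in 12 of 26. Ranked by IDR, 704 of 4943 peaks tie at the lowest value, those at ph-p, Psc, CG11309 and E(z) among them, so that measure does not order them. No paired analysis was possible because there is 1 group. With read depth unknown, a missing peak shows that none was listed, not that none exists.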
